A study of Mus musculus with 4 samples.

Results

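The genes examined were 10 integrin subunits, Itga1, Itga4, Itga5, Itga7, Itga8, Itga9, Itga11, Itgav, Itgb1 and Itgb5, followed through kinds of stromal cell in 1 single-cell library of the mouse small intestine. They were chosen by name from the 18619 genes of the file, which listed 15 further integrin genes, and the kinds of cell were set by marker genes. The cells were PDGFRβ+ intestinal stromal cells (IntSCs) of adult C57BL/6J mice. The mice carried Pdgfrb-CreERT2, a Cre recombinase that tamoxifen activates in cells that use the Pdgfrb promoter, a tdTomato reporter and floxed alleles of both LATS kinase genes (Lats1 f/f Lats2 f/f). Of the 4 samples in 3 groups, only LATS1/2 KO at 1 week was examined, and the 2 wild-type libraries and the KO library at 2 weeks were not analysed here. The mice had been given tamoxifen, and in the paper the weeks count from its delivery. Every comparison was therefore made among mutant cells of a single library, without replicates, tests or a wild-type level. The serosa and muscle layer had been stripped before dissociation, and immune, epithelial and endothelial cells had been depleted. Contaminating immune cells with Ptprc and endothelial cells with Pecam1 and Cdh5 had been taken out after a first clustering. The mutant and wild-type sets were each described as 2 mice per group, without a statement of how many gave this library. It held cells of both sexes, by the sex-linked genes given below, and so came from more than 1 mouse.

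Integrins are receptors of 1 α and 1 β chain that join the extracellular matrix to the actin cytoskeleton, and the α chain largely sets the ligand. The chains α1 and α11 bind collagens, and α7 binds laminins. The chains α5, α8 and αv bind proteins with an RGD motif such as fibronectin, vitronectin and nephronectin, and α4 and α9 bind ligands that include VCAM-1, fibronectin and tenascin-C. The chain β1 pairs with many α chains, whereas β5 pairs with αv alone. LATS1 and LATS2 restrain the coactivators YAP and TAZ, which act through TEAD transcription factors and respond to cell attachment and tension.

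All 10 genes are protein coding. On mm10, Itga8 lies at chr2:12106632-12301922, Itga4 at chr2:79255426-79333123, Itgav at chr2:83724397-83806916, Itga9 at chr9:118606690-118901003 and Itga11 at chr9:62677826-62783982. Itga1 lies at chr13:114953096-115101964, Itga5 at chr15:103344286-103366763, Itga7 at chr10:128933818-128958282, Itgb1 at chr8:128685654-128733200 and Itgb5 at chr16:33829665-33949338. The 250 bases before the transcription start came from RefSeq (GRCm38.p6, the same assembly as mm10), which gave 9 of the 10 genes, without Itga7. The window of Itga9, at chr9:118711442-118711691, lies inside the gene as placed above, so it does not precede that start, and it is included in the counts of windows. Windows of 3 members are shown, that of Itga8 because it had the highest ratio of a class to the villus clusters, that of Itga1 because it was higher in both villus clusters with high YAP targets, and that of Itgb1 because it alone held the letters searched for TEAD factors. They are written 5′ to 3′ along the gene, and capitals mark those letters.
Itga8, chr2:12301945-12302194, minus strand: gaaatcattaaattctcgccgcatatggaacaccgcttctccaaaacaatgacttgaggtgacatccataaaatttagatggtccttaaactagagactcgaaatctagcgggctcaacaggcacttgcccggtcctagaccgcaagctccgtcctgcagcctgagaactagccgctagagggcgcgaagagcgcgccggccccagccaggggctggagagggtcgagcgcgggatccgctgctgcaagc
Itga1, chr13:115101965-115102214, minus strand: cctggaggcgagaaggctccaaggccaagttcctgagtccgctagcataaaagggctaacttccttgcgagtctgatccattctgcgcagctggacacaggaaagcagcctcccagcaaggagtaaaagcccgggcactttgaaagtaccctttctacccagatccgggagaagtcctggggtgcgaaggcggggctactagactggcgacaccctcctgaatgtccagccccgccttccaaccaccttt
Itgb1, chr8:128685404-128685653, plus strand: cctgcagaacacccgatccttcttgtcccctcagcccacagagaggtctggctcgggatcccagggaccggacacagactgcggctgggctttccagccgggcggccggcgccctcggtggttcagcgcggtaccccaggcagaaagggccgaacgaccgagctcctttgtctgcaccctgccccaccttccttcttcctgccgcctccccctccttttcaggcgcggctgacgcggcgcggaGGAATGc
The letters GGAATG, searched on both strands, were in 1 of the 9 member windows and in 12.6% of all 32851 windows of this length. In Itgb1 they began 7 bases before the start. The AP-1 letters TGACTCA were in 0 of the 9 and in 4.46% of all windows, and the CArG box in 0 of the 9 and in 1.47%. A match describes the letters and is not evidence that a factor binds there.

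In all, 4108 cells and 46054627 unique molecular identifiers (UMIs) were read, and the median cell had 10726 UMIs. A level is given as counts per 1000000 UMIs (CPM) of the cells in question, not scaled for gene length, so that levels are compared between cells and not between genes. Ranges after a value are exact 95% intervals for counting error, which leaves out differences between animals. Lats1 was at 14.2 CPM and Lats2 at 53.5 CPM. Counts from the 3-prime end need not come from the deleted part, and no wild-type level was at hand, so these values do not check the genotype. Pdgfrb, the gene the cells were sorted on through its promoter, was at 275 to 1858 CPM over the clusters described next. All 4108 cells had a Pdgfrb UMI, although the paper's methods name no filter on this gene, so its level is not read as a check of the sorting.

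Clustering without the integrin genes gave 10 clusters. Clusters 1, 2, 4, 5 and 6, with 3025 cells, are called villus clusters because Adamdec1, a marker of the villus fibroblasts vFB1-2, stood at 4105 to 6589 CPM in them, although the naming rule gave them no name and cluster 8 had 4237 CPM. Cluster 3 (688 cells) was FB4-like with all 4 FB4 markers, Ackr4, Grem1, Cilp and Cd81. Cluster 8 (76 cells) was SMC-like with all 7 smooth muscle markers, Cnn1, Actg2, Myh11, Acta2, Lmod1, Tagln and Des, and cluster 10 (45 cells) was vFB3-like with P2rx1, Fhl2, Mmp10 and Tacr1. Cluster 7 (205 cells) met all 5 FB5 markers, but the mural cell genes Kcnj8 and Abcc9 were among its 10 leading genes and it is called Sox6-high. Cluster 9 (69 cells) met all 10 mural cell markers, which summed to 4951 CPM there and to at most 1044 CPM elsewhere. None of them was among its leading genes, whereas Ano1, from a list of 3 markers of interstitial cells of Cajal, was (68.6 CPM). Of the others on that list, Kit was at 5.28 CPM and Etv1 at 21.1 CPM, with Etv1 highest in cluster 7 at 223 CPM. The naming rule thus gave cluster 9 no name, and it is called Notch3-high. Cluster 6 met 3 of the 4 vFB3 markers with none among its leading genes. Cluster 5 likewise met 3 of the 4 FB4 markers with none among its leading genes. The FB4 markers summed to 246 CPM there and to 2179 CPM in cluster 3. The vFB3 marker Tacr1 was at 55 CPM in cluster 10 and at most 0.80 CPM elsewhere. Of other cell types, the summed level of the 4 immune markers was 21.3 to 58.8 CPM over the clusters, and that of the 4 endothelial markers at most 10.6 CPM, in the Notch3-high cells, with Kdr at 35, Cdh5 at 7, Tie1 at 3 and Pecam1 at 0 UMIs in the library. The epithelial and mesothelial markers summed to at most 0.80 and 0.706 CPM.

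Each class was compared with the pooled villus clusters as a ratio of CPM, and a member was counted at 2-fold or more, or at a ratio of 0.5 or less. A gene was counted if it had 10 CPM in the class or in the villus clusters. Itga4, Itga5, Itga7 and Itga8 were under 10 CPM in the villus clusters, so they were counted only where the class itself was above it, and their being higher there is in part set by that limit. In the FB4-like cells 0 of 7 members were higher and 1 lower, beside 3.46% and 4.35% of all genes compared. In the Sox6-high cells 2 of 7 members were higher and 0 lower, beside 6.43% and 7.78% of all genes compared. In the SMC-like cells 4 of 9 members were higher and 1 lower, beside 7.55% and 8.18% of all genes compared. In the Notch3-high cells 4 of 9 members were higher and 1 lower, beside 11.7% and 9.84% of all genes compared. In the vFB3-like cells 4 of 8 members were higher and 0 lower, beside 9.2% and 9.66% of all genes compared. The higher members were Itga5 and Itga11 in the Sox6-high, Itga4, Itga5, Itga8 and Itga9 in the SMC-like, Itga1, Itga4, Itga7 and Itga8 in the Notch3-high, and Itga1, Itga8, Itga9 and Itgav in the vFB3-like cells. The lower ones were Itga1 in the FB4-like, Itgb5 in the SMC-like and Itga11 in the Notch3-high cells. Itga1 and Itgav in the vFB3-like cells lay near the limit and were under 2-fold in 3 and 2 of 12 alternative treatments of the data, at 1.66 and 1.75 at the lowest. The median ratio of the members counted ran from 0.797 in the FB4-like to 1.95 in the vFB3-like cells, and that of all genes compared from 0.928 to 1.12 in the same classes.

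**Figure D1:**
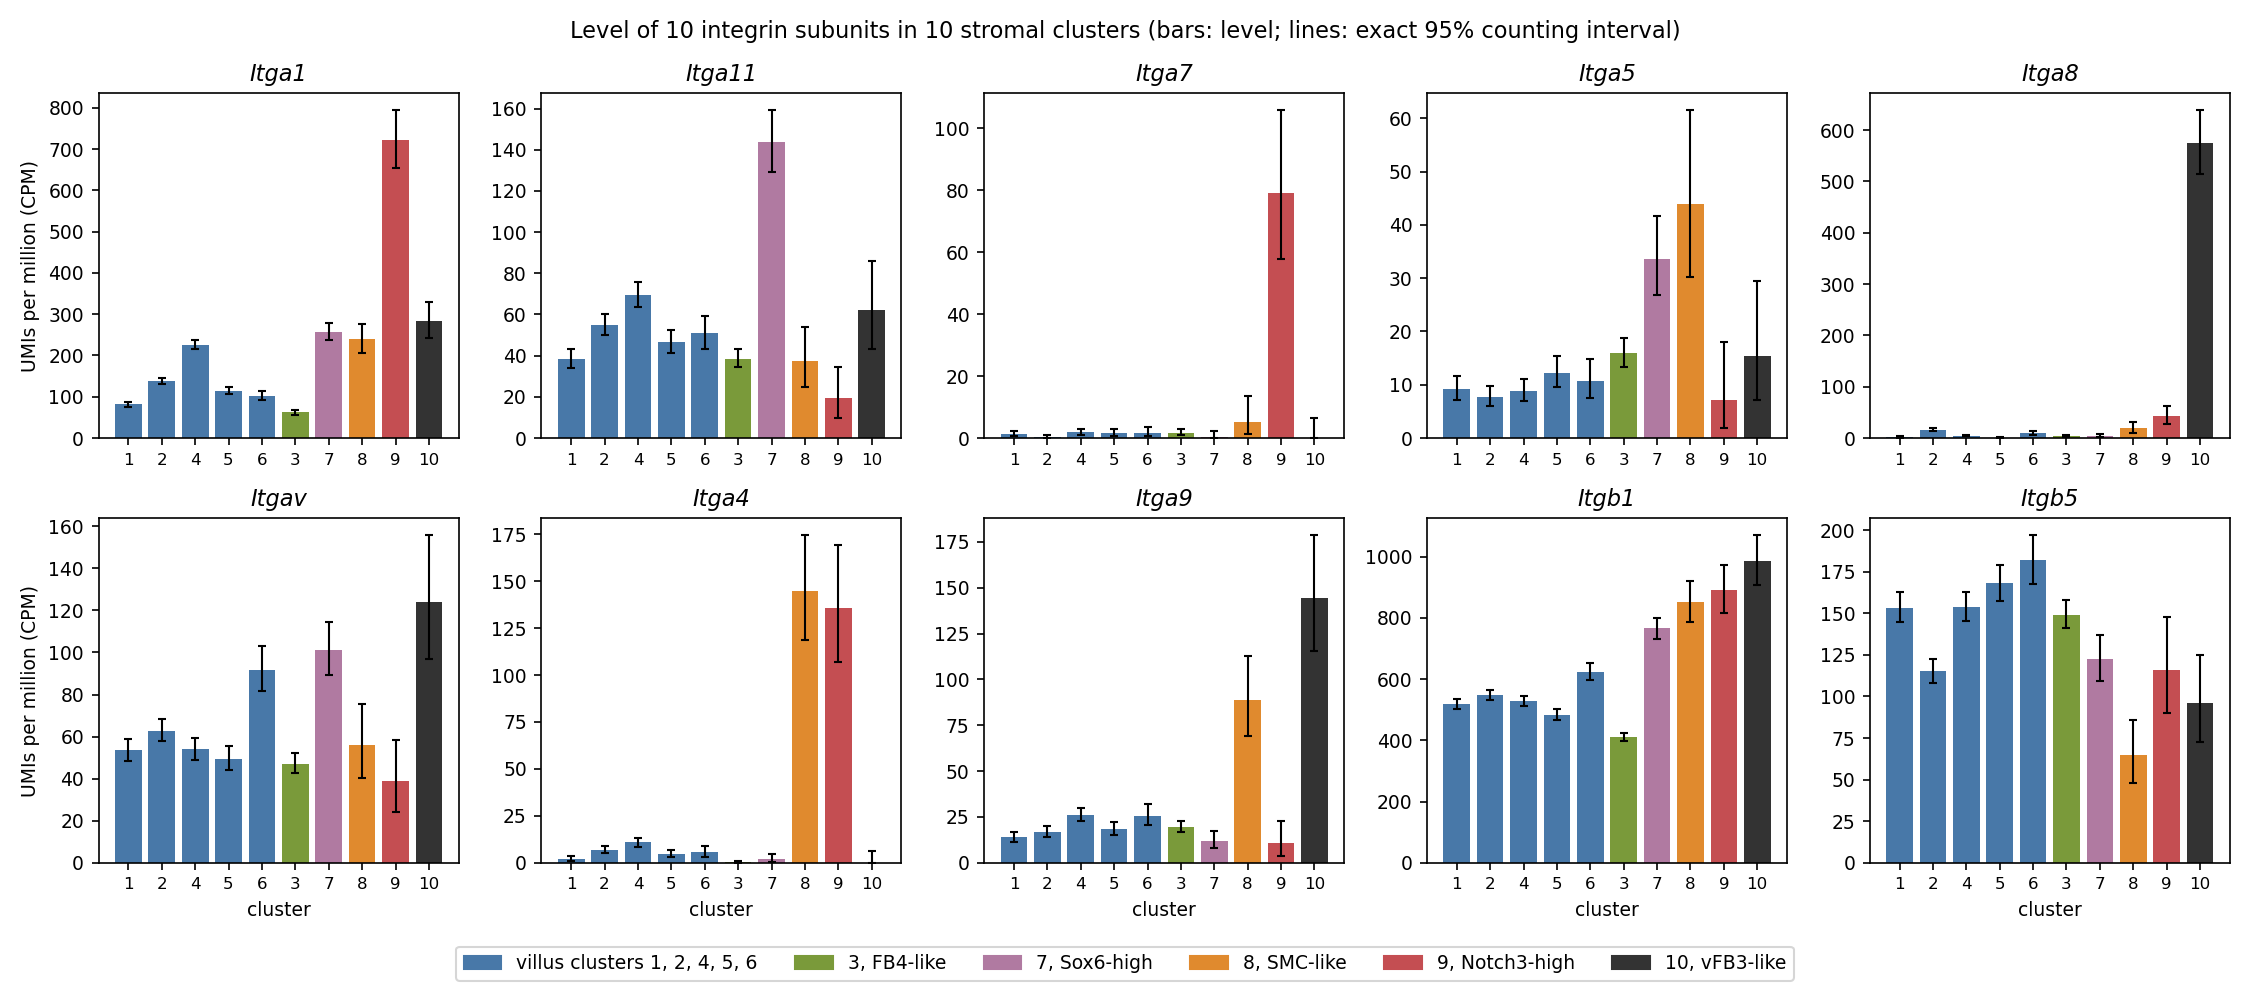
Level of each integrin subunit gene (CPM, vertical axis, own scale in each panel) in 10 clusters (horizontal axis, villus clusters first). Bars are levels and lines exact 95% counting intervals. Itga8 stood at 574 CPM in the vFB3-like cluster 10 and at 42.2 CPM or less elsewhere, and Itgb1 between 412 and 987 CPM.

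**Figure D2:**
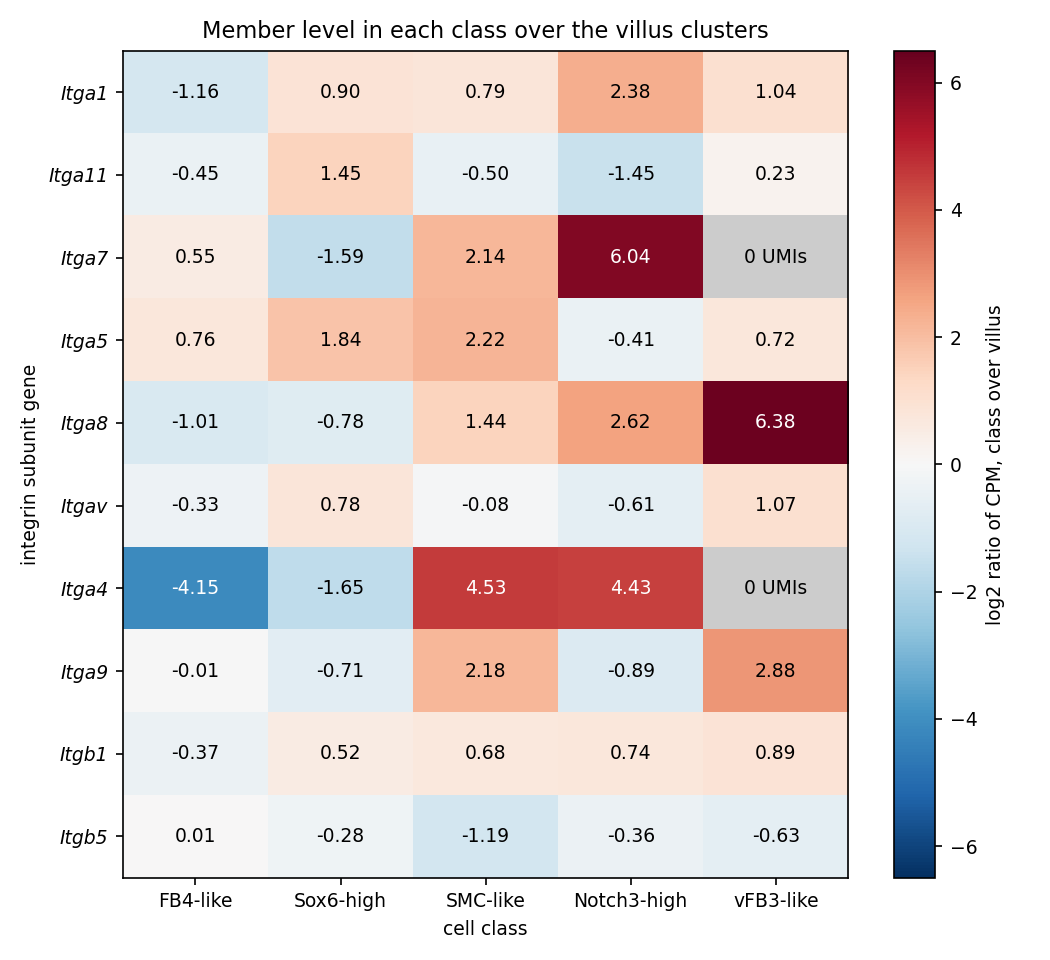
The log2 ratio of CPM, class over pooled villus clusters, for 10 genes (rows) in 5 classes (columns), red where higher and blue where lower. The highest values were 6.38 for Itga8 in the vFB3-like and 6.04 for Itga7 in the Notch3-high cells, and grey marks 0 UMIs.

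Of the collagen receptor chains, Itga1 was highest in the Notch3-high and Itga11 in the Sox6-high cells. Itga1, which encodes α1, was at 81.3, 138, 226, 114 and 102 CPM in villus clusters 1, 2, 4, 5 and 6. It was at 61.9 CPM in the FB4-like, 257 in the Sox6-high, 239 in the SMC-like, 721 in the Notch3-high and 284 CPM in the vFB3-like cells. The Notch3-high cells stood above all others and the FB4-like cells below, and the vFB3-like, Sox6-high, SMC-like and cluster 4 cells were each within counting error of their neighbour in the order. Against the villus clusters Itga1 was 5.21-fold (4.7 to 5.77) in the Notch3-high, 2.05-fold (1.75 to 2.4) in the vFB3-like and 0.447-fold (0.408 to 0.489) in the FB4-like cells. In cells thinned to 5000 UMIs, 87.5% (74.8 to 95.3%) of 48 Notch3-high and 43.2% (41.4 to 45%) of 2970 villus cells had an Itga1 UMI, and unthinned 97.1% and 64.7%. Itgb2, a leukocyte chain that stromal cells should lack, was seen in 0% (0 to 7.4%) of the same thinned Notch3-high and 0.101% of the villus cells.

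Itga11, which encodes α11, was at 38.3, 54.8, 69.5, 46.4 and 50.9 CPM in villus clusters 1, 2, 4, 5 and 6. It was at 38.6 CPM in the FB4-like, 144 CPM (129 to 159) in the Sox6-high, 37.2 in the SMC-like, 19.4 in the Notch3-high and 61.9 CPM in the vFB3-like cells. The Sox6-high cells stood above every other cluster, 2.07 (1.8 to 2.37) times cluster 4 as the next. The ratio to the villus clusters was 2.73 (2.43 to 3.06) in the Sox6-high and 0.367 (0.183 to 0.659) in the Notch3-high cells, so the cells with most Itga1 had least Itga11, although the Notch3-high and SMC-like levels of Itga11 were not told apart.

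Itga7, which encodes the laminin receptor chain α7 known from muscle, had its highest level in the Notch3-high cells. It was at 79.2 CPM (57.8 to 106) there, from 45 of its 105 UMIs, in 29 of 69 cells. The SMC-like cells had 5.31 CPM from 4 UMIs and the villus clusters 1.21 CPM. The vFB3-like cells had 0 UMIs, where 3 counts would be 5.16 CPM. The Notch3-high cells were 65.6-fold (41.9 to 103) above the villus clusters and 14.9 (5.43 to 57) times the SMC-like cells, and no neighbours below them were told apart. The 7 smooth muscle markers summed to 12968 CPM in the Notch3-high and 24039 CPM in the SMC-like cells, and their part in the Itga7 level was not tested.

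Of the chains that bind RGD proteins, Itga8 had the highest ratio of any member to the villus clusters. It encodes α8, a receptor for nephronectin. The vFB3-like cells had 574 CPM (515 to 639.5), and each of the 45 cells had an Itga8 UMI, 27 of them 5 or more. Itga8 was at 1.73, 16.5, 4.6, 0.518 and 9.8 CPM in villus clusters 1, 2, 4, 5 and 6. It was at 3.41 CPM in the FB4-like, 4.0 in the Sox6-high, 18.6 in the SMC-like and 42.2 CPM in the Notch3-high cells. The vFB3-like cells were 83.5-fold (70.4 to 99.3) above the villus clusters, 58.6-fold (40.7 to 87.1) above cluster 6 and 13.6-fold (8.99 to 21.5) above the Notch3-high cells as the next in the order. Of thinned cells, 84.1% (69.9 to 93.4%) of 44 vFB3-like and 2.59% (2.05 to 3.23%) of the villus cells had an Itga8 UMI, and unthinned 100% and 5.32%. Itga8 was left out of the clustering, but its link with the vFB3 markers was known from earlier results. Y-linked UMIs in cells with Xist bounded free RNA of Itga8 at 1.2 CPM, above its level in cluster 5.

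In cluster 2, 93 of 725 cells had an Itga8 UMI. At resolution 1.0 most of this cluster fell into a set of 348 cells with 30.1 CPM (25.2 to 35.6) of Itga8 and a set of 361 cells with 2.18 CPM (0.997 to 4.14). The first set also had more of 3 vFB3 markers, with Mmp10 at 115 against 5.57 CPM, P2rx1 at 16.2 against 0.969 CPM and Fhl2 at 446 against 171 CPM. Tacr1 had 1 UMI in the first set and 0 in the other. Amotl2, a YAP target, was at 170.0 and 211 CPM, and Itga1 at 108 and 169 CPM. The set with more Itga8 thus had less Itga1, unlike the vFB3-like cells, which were high in both.

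Itga5 and Itgav varied less. Itga5, which encodes the fibronectin receptor chain α5, was at 43.8 CPM (30.2 to 61.6) in the SMC-like and 33.6 CPM (26.8 to 41.6) in the Sox6-high cells, which were not told apart, and between 7.04 and 15.9 CPM in the other clusters. The ratio to the villus clusters was 4.67 (3.16 to 6.7) and 3.58 (2.78 to 4.57). Itgav, which encodes αv, was at 53.5, 62.8, 53.9, 49.5 and 91.9 CPM in villus clusters 1, 2, 4, 5 and 6. It was at 47.2 CPM in the FB4-like, 101 in the Sox6-high, 55.8 in the SMC-like, 38.7 in the Notch3-high and 124 CPM in the vFB3-like cells. The vFB3-like, Sox6-high and cluster 6 cells came first, each within counting error of the next, although the vFB3-like cells were 1.35-fold (1.03 to 1.75) above cluster 6. The ratio to the villus clusters was 2.09 (1.63 to 2.65) in the vFB3-like cells, and cluster 6 was 1.65-fold (1.46 to 1.87) above the other villus clusters.

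Itga4 and Itga9 encode related α chains, and both were high in the SMC-like cells. Itga4 was at 145 CPM (119 to 175) in the SMC-like and 135 CPM (107 to 169) in the Notch3-high cells, which were not told apart. It was at 2.13, 6.97, 10.9, 4.83 and 5.51 CPM in villus clusters 1, 2, 4, 5 and 6, 2.0 CPM in the Sox6-high and 0.353 CPM in the FB4-like cells, the last from 3 UMIs. The vFB3-like cells had 0 UMIs, which at this depth leaves a ratio to the villus clusters of up to 1.02. Against the villus clusters the SMC-like cells were 23.1-fold (18.1 to 29.2) and the Notch3-high cells 21.6-fold (16.4 to 28.2). Of thinned cells, 48% (36.3 to 59.8%) of the SMC-like, 43.8% (29.5 to 58.8%) of the Notch3-high and 2.73% (2.17 to 3.38%) of the villus cells had an Itga4 UMI, and unthinned 61.8%, 47.8% and 5.69%. Leukocytes also use α4, and the immune markers summed to 21.3 and 24.6 CPM in these classes and 26 CPM or more in the others. Ptprc had 22 UMIs in the library and 0 in both classes. As immune cells had been taken out by this gene after a first clustering, Ptprc is no check here, and the part of leukocytes was not tested.

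Itga9 was highest in the vFB3-like cells at 144 CPM (115 to 179), followed by the SMC-like cells at 89 CPM (69 to 113). It was at 14.1, 16.9, 26.1, 18.6 and 25.7 CPM in villus clusters 1, 2, 4, 5 and 6, 19.5 in the FB4-like, 12 in the Sox6-high and 10.6 CPM in the Notch3-high cells. The vFB3-like cells were 1.62-fold (1.16 to 2.27) above the SMC-like cells, and against the villus clusters they were 7.37-fold (5.8 to 9.26) and the SMC-like cells 4.54-fold (3.48 to 5.84). Itga4 and Itga9 were thus both high in the SMC-like cells, Itga4 without Itga9 in the Notch3-high cells, and Itga9 without Itga4 in the vFB3-like cells. Itga8 and Itga9 were both seen in 43.2% (28.3 to 59%) of thinned vFB3-like and 0.438% (0.233 to 0.747%) of thinned villus cells.

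Of the members, the β chains Itgb1 and Itgb5 differed least between classes. Itgb3, a β chain outside the members, ran from 5.6 CPM in the Sox6-high to 94.6 CPM in the vFB3-like cells. Itgb1, which encodes β1, was at 519, 548, 529, 484 and 625 CPM in villus clusters 1, 2, 4, 5 and 6. It was at 412 CPM in the FB4-like, 766 in the Sox6-high, 852 in the SMC-like, 892 in the Notch3-high and 987 CPM in the vFB3-like cells. The last 3 were each within counting error of the next, although the vFB3-like cells were 1.16-fold (1.03 to 1.3) above the SMC-like cells, and no class passed 2-fold, with ratios from 0.772 (0.744 to 0.80) in the FB4-like to 1.85 (1.7 to 2.01) in the vFB3-like cells. Itgb5, which encodes β5, was at 153, 115, 154, 168 and 182 CPM in villus clusters 1, 2, 4, 5 and 6. It was at 149 CPM in the FB4-like, 122 in the Sox6-high, 116 in the Notch3-high, 96.3 in the vFB3-like and 65.1 CPM in the SMC-like cells. The SMC-like cells were 0.438-fold (0.323 to 0.58) against the villus clusters.

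**Figure D3:**
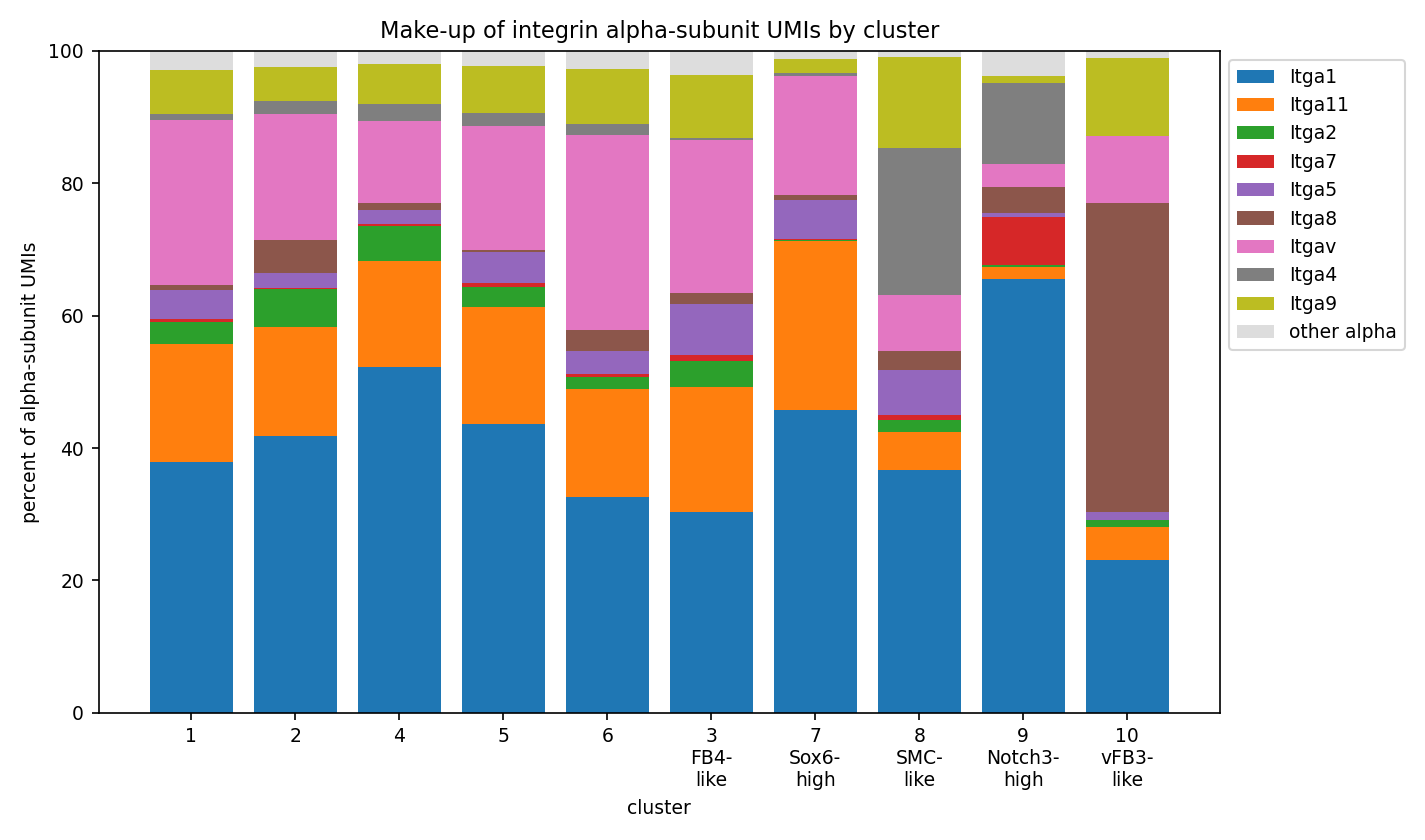
Share of integrin α-chain UMIs (percent, vertical axis) from each α gene in 10 clusters (horizontal axis). Itga1 is the largest segment in every cluster but the vFB3-like cluster 10, where Itga8 takes 46.7% and Itga1 23.1%.

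The mix of α chains was taken as the share of each gene in all α-chain UMIs of a cluster, and only its differences between clusters are described, as the genes were not scaled for length. Itga1 made up 65.6% (61.7 to 69.3%) in the Notch3-high and 30.3% (28.1 to 32.5%) in the FB4-like cells. Itga8 made up 46.7% (43 to 50.4%) in the vFB3-like cells and 4.97% (4.2 to 5.82%) in cluster 2. Itga4 made up 22.2% (18.6 to 26.1%) in the SMC-like and 12.3% (9.85 to 15.2%) in the Notch3-high cells. Itga11 made up 25.5% (23.3 to 27.9%) in the Sox6-high cells, and Itgav 29.4% (26.7 to 32.3%) in cluster 6 and 3.52% (2.22 to 5.28%) in the Notch3-high cells.

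Pairs of chains were looked for in the same thinned cell, where a pair is missed if either chain is. Each thinned vFB3-like and Notch3-high cell had an Itgb1 UMI, so a pair with Itgb1 repeats there the share of cells with the α chain. Itgav and Itgb5, which form αvβ5, were both seen in 18.2% (8.19 to 32.7%) of the vFB3-like, 23.1% (18.7 to 28%) of the cluster 6 and 12.6% (11.4 to 13.8%) of all villus cells. Itgav and Itgb3, which form αvβ3, were both seen in 20.5% (9.8 to 35.3%) of the vFB3-like, 13.7% (10.2 to 17.9%) of the cluster 6, 9.33% (3.84 to 18.3%) of the SMC-like and 3.97% (3.3 to 4.74%) of all villus cells. In villus clusters 1, 2, 4 and 5 that pair was seen in at most 3.66%, so cluster 6 raised the pooled share.

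Villus clusters that differ in YAP targets were compared in 2 pairs, cluster 2 over 1 and cluster 4 over 5. Amotl2 was at 192 CPM in cluster 2 against 52.8 in cluster 1, and at 282 CPM in cluster 4 against 77.5 in cluster 5. In the same order Ajuba was 4.96-fold (3.14 to 8.19) and 3.5-fold (2.28 to 5.57), Ctgf 2.76-fold (2.39 to 3.19) and 5.65-fold (4.54 to 7.1), and Cyr61 1.06-fold (0.977 to 1.14) and 2.5-fold (2.38 to 2.62), so Cyr61 did not part the first pair. Immediate early genes, which dissociation can induce, were not matched within the pairs. Their summed level was 491 CPM in cluster 2 against 2156 in cluster 1 and 5954 CPM in cluster 4 against 9326 in cluster 5, and Fos was 0.185-fold (0.172 to 0.199) and 0.656-fold (0.642 to 0.671). The clusters with high YAP targets thus had less of them. YAP targets were left out of the clustering, all these cells were mutant, and the clusters differ in other genes as well. Cells with the female transcript Xist were 65.1% of cluster 2 against 52.5% of cluster 1, and 53.1% of cluster 4 against 36.8% of cluster 5. The part of this difference in the ratios was not tested.

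**Figure D4:**
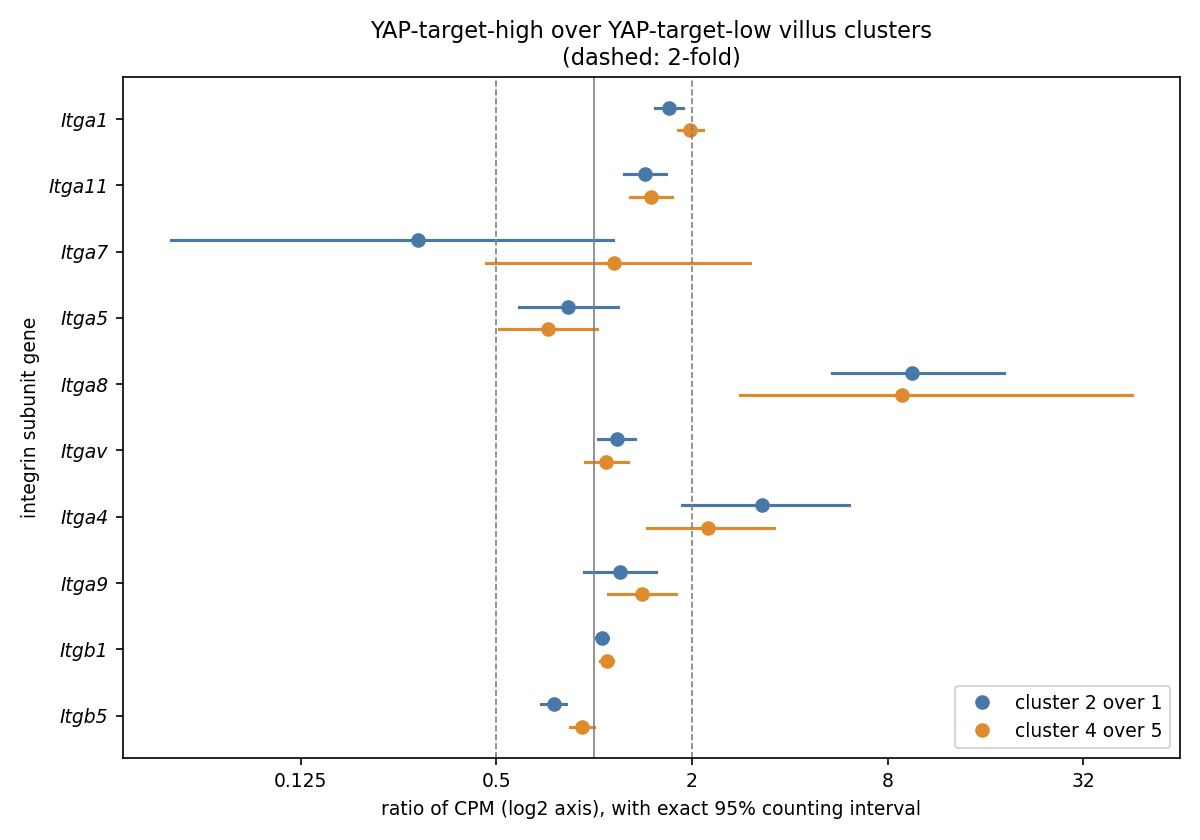
Ratio of CPM of each member between villus clusters with high and low YAP targets (horizontal axis, log2 scale), blue for cluster 2 over 1 and orange for cluster 4 over 5. Points are ratios and lines exact 95% counting intervals. The intervals of Itga1, Itga4, Itga8 and Itga11 lie above 1 in both pairs.

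In cluster 2 over 1, 1 of 7 members were higher and 0 lower, beside 2.8% and 3.21% of all genes compared, and the higher one was Itga8. Of that pair only cluster 2 had it above the 10 CPM limit, so its being counted was set by that level. In cluster 4 over 5, 1 of 8 members were higher and 0 lower, beside 2.4% and 1.49% of all genes compared, and the higher one was Itga4. It too was above the limit only in the cluster where it was higher, so neither count is a result about the members. Itga1 was 1.7-fold (1.54 to 1.88) and 1.98-fold (1.81 to 2.17), and Itga11 was 1.43-fold (1.23 to 1.66) and 1.5-fold (1.29 to 1.74). Both collagen receptor chains were thus above counting error in each pair and under 2-fold. Itga4 was 3.27-fold (1.86 to 6.08) from 61 and 16 UMIs, and 2.25-fold (1.45 to 3.58) from 85 and 28 UMIs. Itga8 was 9.51-fold (5.39 to 18.3) in the first pair and 8.89-fold (2.81 to 45.1) in the second, the last from 36 and 3 UMIs and under the 10 CPM limit. At resolution 1.0, which divides cluster 2, only the new cluster that held most of its cells stood for it. That was the one with the set of 361 cells at 2.18 CPM of Itga8. The first Itga8 ratio was then 1.53 and the first Itga4 ratio 1.84. The set of 348 cells at 30.1 CPM of Itga8 was not part of these ratios.

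The other members differed less within the pairs. Itgb1 was 1.06-fold (1.01 to 1.1) and 1.09-fold (1.04 to 1.15), and Itgav 1.17-fold (1.03 to 1.34) and 1.09-fold (0.935 to 1.27). Itga9 was 1.2-fold (0.928 to 1.55) and 1.4-fold (1.1 to 1.78), and Itga5 0.834-fold (0.587 to 1.18) and 0.72-fold (0.509 to 1.02). Itgb5 was 0.75-fold (0.688 to 0.817) and 0.916-fold (0.841 to 0.997), lower in both pairs. Itga7 had at most 14 UMIs in any of the 4 clusters.

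Across the pairs the clusters also differed in immediate early genes, with Fos 17.8-fold (16.6 to 19) in cluster 4 over 2 and 5.01-fold (4.84 to 5.18) in cluster 5 over 1. In the same order Itga1 was 1.64-fold (1.52 to 1.76) and 1.41-fold (1.26 to 1.57), and Itga4 1.56-fold (1.11 to 2.2) and 2.27-fold (1.19 to 4.49). Itga8 was 0.28-fold (0.188 to 0.405) and 0.299-fold (0.0547 to 1.09). Itga1 and Itga4 were thus higher with more immediate early genes across the pairs and higher with fewer of them within the pairs. The part of immediate early genes in these values was not tested.

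Of the 15 further integrin genes, 6 reached 5 CPM in some cluster. Itgb3, the β3 partner of αv, was at 94.6 CPM in the vFB3-like, 85 in the SMC-like and 82.1 CPM in cluster 6, and at 27 CPM or less elsewhere. Itga2, another collagen receptor chain, was 2.69-fold (1.96 to 3.74) in cluster 2 over 1 and 2.73-fold (1.98 to 3.84) in cluster 4 over 5, past 2-fold in both. Itga10, also a collagen receptor chain, was at 31.7 CPM from 18 UMIs in the Notch3-high cells. Itgb8, another partner of αv, was at 25.1 CPM in cluster 6 and 21.3 CPM in the SMC-like cells. Itga3 was at 12 CPM in the vFB3-like and Itga2b at 5.53 CPM in the FB4-like cells.

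Among 21 genes whose products link integrins to actin and signalling, those past 2-fold were counted by class. In the SMC-like cells 10 of 19 were higher (all genes 7.55%) and 1 lower (8.18%). In the Notch3-high cells 7 of 18 were higher (all genes 11.7%) and 0 lower (9.84%). In the vFB3-like cells 6 of 18 were higher (all genes 9.2%) and 1 lower (9.66%). In the Sox6-high cells 3 of 18 were higher (all genes 6.43%) and 1 lower (7.78%). In the FB4-like cells 2 of 18 were higher (all genes 3.46%) and 0 lower (4.35%). Vcl, which encodes vinculin, was 4.7-fold (4.07 to 5.41) in the SMC-like and 5.06-fold (4.31 to 5.9) in the Notch3-high cells, and Lims2, a partner of integrin-linked kinase, 5.13-fold (3.87 to 6.69) and 6.23-fold (4.64 to 8.22). Ptk2b, a relative of focal adhesion kinase, was 7.59-fold (5.29 to 10.7) in the SMC-like cells. Its level in the villus clusters was 7.0 CPM, under the 10 CPM limit, so it was counted only through its SMC-like level. The tensin gene Tns1 was 4.56-fold (3.89 to 5.3) in the Notch3-high cells, and Tns3 was 4.45-fold (3.66 to 5.38) in the vFB3-like and 0.0882-fold (0.0182 to 0.258) in the SMC-like cells. Lims2 and Tns3 were also the 2 genes past 2-fold in both villus pairs, with none lower. In the second pair Lims2 was above the 10 CPM limit only in cluster 4, at 21.2 against 5.69 CPM in cluster 5.

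Among 26 ligand genes, those past 2-fold were counted likewise. Npnt, Lama5 and Vtn were at 2.38, 0.633 and 0.271 CPM in the villus clusters, under the 10 CPM limit. They were thus counted only where the class itself was above it, and their being higher there is in part set by that limit. For the vFB3-like cells 6 of 23 were higher (all genes 9.2%) and 3 lower (9.66%). For the SMC-like cells 3 of 24 were higher (all genes 7.55%) and 8 lower (8.18%). For the Notch3-high cells 4 of 25 were higher (all genes 11.7%) and 11 lower (9.84%). For the Sox6-high cells 1 of 22 were higher (all genes 6.43%) and 4 lower (7.78%). For the FB4-like cells 1 of 22 were higher (all genes 3.46%) and 4 lower (4.35%). Npnt, which encodes the α8 ligand nephronectin, was at 581 CPM in the SMC-like, 2.38 CPM in the villus clusters and had 0 UMIs in the vFB3-like cells, where Itga8 was highest. At this depth the 0 UMIs leave a ratio to the villus clusters of up to 2.73, so these sets were not told apart. Tnc, which encodes tenascin-C, was 2.5-fold (2.22 to 2.81) in the vFB3-like and 0.192-fold (0.172 to 0.214) in the FB4-like cells. Vcam1, a ligand of α4 and α9, was at 411 CPM in the vFB3-like, 152 in the villus, 39.9 in the SMC-like and 63.3 CPM in the Notch3-high cells, and so was lower in both classes with high Itga4 than in the villus clusters. Thbs1, which encodes thrombospondin 1, was 4.02-fold (3.57 to 4.5) and Tgfb1, whose latent form binds αv integrins, 4.81-fold (3.45 to 6.54) in the vFB3-like cells.

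Lama5, a laminin chain, was at 60.2 CPM in the vFB3-like, 35.2 in the Notch3-high, 19.9 in the SMC-like and 0.633 CPM in the villus clusters. Lama2, another laminin chain, was 0.0534-fold (0.0244 to 0.101) in the vFB3-like cells. Vtn, which encodes the αv ligand vitronectin, was at 308 CPM in the Notch3-high cells and is one of the mural cell markers. Itgav was lowest in those cells, although not told apart from the FB4-like cells as the next in the order. Postn, which encodes periostin, was at 566 CPM in the SMC-like, 448 in the FB4-like and 95 CPM in the villus clusters, 0.198-fold (0.145 to 0.264) in the Sox6-high cells and at 0 UMIs in the vFB3-like cells. Ctgf, a matricellular YAP target, was 6.47-fold (5.63 to 7.41) in the Notch3-high cells.

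Genes whose log2(CPM + 1) over the 10 clusters was most like that of a member were ranked by Pearson r among 8181 genes with at least 500 UMIs. The 10 points share 1 library, so r is a description. Nearest to Itga7 were Mef2c (0.992), Daam1 (0.964) and Mef2a (0.958), of which Mef2c and Mef2a encode transcription factors known from muscle. Nearest to Itgb1 were Actn1 (0.98), Ktn1 (0.978) and B230219D22Rik (0.974), of which Actn1 encodes an α-actinin. Nearest to Itga1 were Trabd (0.963), Actn4 (0.96) and Bcl9 (0.955), of which Actn4 encodes another α-actinin. For Itga11 they were Gars (0.962), Aldh1a1 (0.935) and Etfrf1 (0.932), for Itga8 Telo2 (0.936), Rab14 (0.932) and Prmt2 (0.932) and for Itga9 Exoc3 (0.963), Amer1 (0.962) and Cpsf2 (0.95). For Itga4 they were Lsm3 (0.961), Crtc3 (0.945) and Senp6 (0.943), for Itga5 Fam204a (0.924), Cox20 (0.922) and Knop1 (0.884), for Itgav Trim26 (0.966), Med27 (0.951) and Gm26682 (0.949) and for Itgb5 Tmem214 (0.961), Lrp1 (0.942) and Hs2st1 (0.925).

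**Figure D5:**
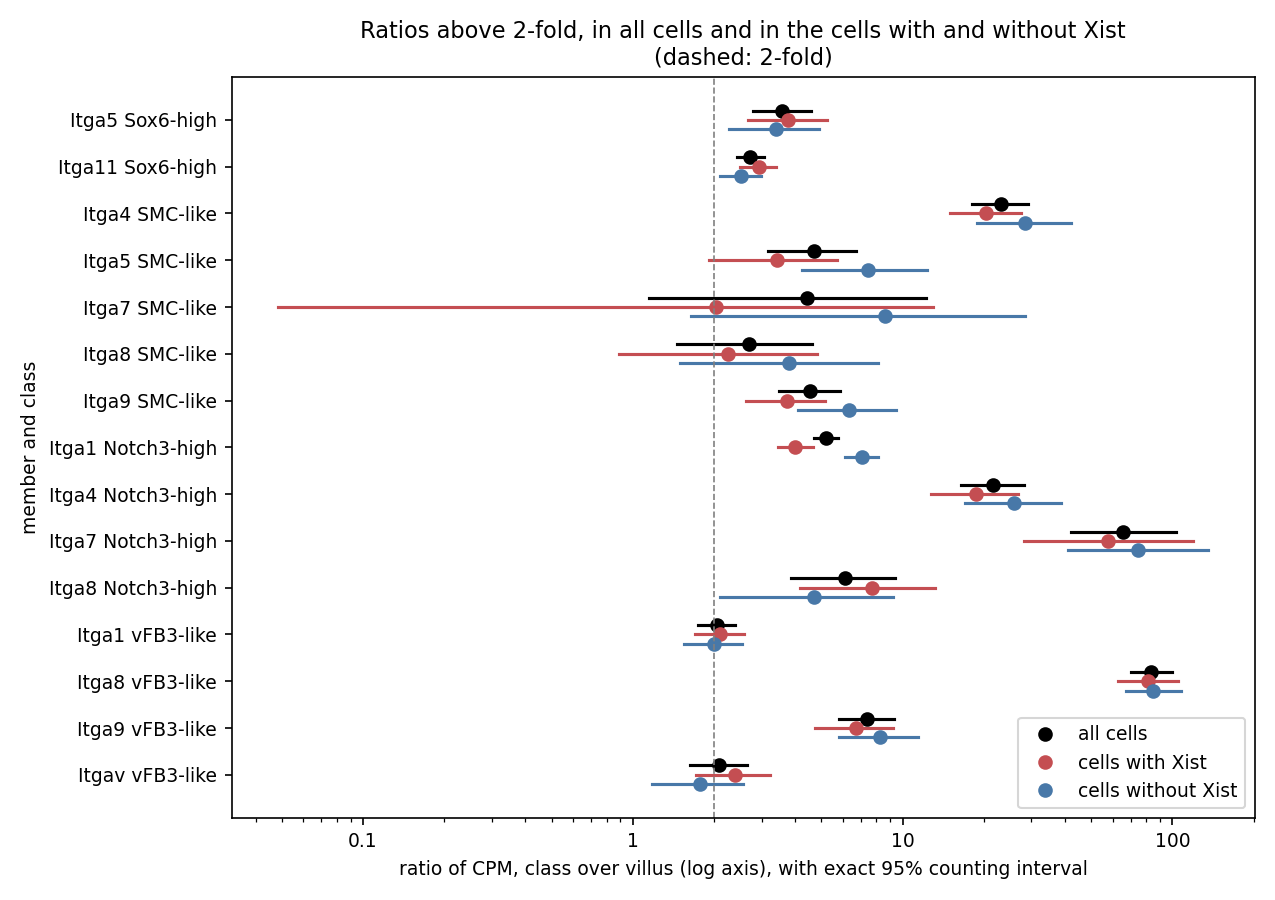
Ratio of CPM, class over villus clusters (horizontal axis, log scale), for the 15 member ratios above 2-fold, in all cells (black), cells with Xist (red) and cells without Xist (blue). Points are ratios and lines exact 95% counting intervals. The points of both sets of cells lie above 1 for each ratio, which does not hold for every interval. Itga7 in the SMC-like cells rests on 4 UMIs in all cells. The intervals of Itga1 in the Notch3-high cells do not overlap.

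Cells with and without the female transcript Xist, which are parts of 1 library and not samples, were also taken apart. Xist was seen in 2125 of the 4108 cells. Y-linked genes were at 76.4 CPM in the library and at 6.6 CPM in cells with at least 5 Xist UMIs. Cells of both sexes were thus present, and these sets can differ by animal as well as by sex. Itga8 in the vFB3-like cells was 81-fold (62.7 to 105) with Xist and 84.8-fold (67.1 to 108) without it, and Itga9 was 6.69-fold (4.74 to 9.22) and 8.23-fold (5.81 to 11.4). Itga7 in the Notch3-high cells was 57.9-fold (28.2 to 119.6) and 74.4-fold (41.1 to 136). Itga1 in the Notch3-high cells was 4.01-fold (3.44 to 4.64) and 7.04-fold (6.09 to 8.11), and these intervals did not overlap. Depth and mitochondrial share also differed between classes. The SMC-like and Notch3-high cells had medians of 7909.5 and 6793 UMIs per cell, against 9442 to 12888 in the other clusters. The median mitochondrial share was 5.35% to 5.96% in clusters 7 to 10 and 4.23% to 5.11% in the rest. In cells with 8000 to 14000 UMIs, of which 8 were Notch3-high, Itga8 in the vFB3-like cells was 144-fold (114 to 182) and Itga4 in the Notch3-high cells 43-fold (24.7 to 70.6), whereas Itga8 in the Notch3-high cells was 2.52-fold (0.0633 to 14.3) and no longer beyond counting error.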

How the data were processed

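Sorted stromal cells were profiled with a Chromium 3-prime v3 kit. Per the labels, the authors used Cell Ranger 3.0.2, mm10 and Seurat 3.0.1. Their methods kept cells with 1000 to 6000 genes and no more than 7% mitochondrial UMIs, and took out immune and endothelial cells. All 4108 cells met these limits. The deposited values were the authors' natural log of 1 plus UMIs per 10000, and whole UMIs were read back from them (100% of nonzero values, tolerance 0.001), in place of the counts that had been assumed.

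Cells were clustered in Seurat 5.3.0 (R 4.3.3) with 1974 of 2000 variable genes, after integrins, YAP targets, secreted factors and sex-linked genes were taken out. UMIs and mitochondrial percent were regressed out, and 30 components and resolution 0.5 were used. A marker counted if 10% of cells had it and it reached 2 times the median over the remaining clusters. A name needed 3 markers of a list, with at least 1 of that list among the 10 leading genes and no fewer than of other lists.

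The members, gene lists and markers, Tacr1 among them, were chosen with earlier results of these data known. The genes named were the 10 members, further integrins with 5 CPM in a cluster, the 3 genes most similar to each member, and linker and ligand genes past 4-fold. Vcam1 was named after its values were seen.

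Intervals are exact at 95%, Poisson for CPM, conditional binomial for ratios and Clopper-Pearson for shares. Cells are not replicates, so no test was run. Thinning to 5000 UMIs left out 94 cells and kept 48 of 69 Notch3-high cells. The authors excluded doublets at sorting. Scrublet (scanpy 1.11.5) called 8 cells (0.195%), which was taken as a failed call, and removal of the top 4% by score was tried as an alternative. The computation was tested on simulated data (Python 3.11.15, numpy 2.4.6, scipy 1.17.1, pandas 2.3.3). Positions are from GENCODE M21.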

Additional observations from a re-analysis of the deposited data

How the results depend on the processing

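No paired analysis was possible because 1 library was analysed and no test was run. Of 29 member ratios past 2-fold, with or without the CPM limit, Itga4 and Itga7 in the vFB3-like cells rested on 0 UMIs, had intervals that reached 1.02 and 5.51, and could not change. Of the other 27, 13 were past 2-fold under every alternative that gave a value. With integrin genes allowed in the clustering and at resolution 0.2, no count of members changed by over 1.5 times. In cells with at most 5% mitochondrial UMIs, which left 8 SMC-like cells, the SMC-like ratios of Itga7 and Itga8 were 0, with upper limits of 41.8 and 8.05.

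The count of members higher in cluster 4 over 5 was 1, with Itga1 just under the limit at 1.98. It was 2 in cells with at most 5% mitochondrial UMIs, with 8000 to 14000 UMIs or with Xist, without the highest doublet scores, with free RNA subtracted, with the mean over cells and with nothing regressed out. It was 0 in cells without Xist, at resolution 1.0 and with the M and F columns integrated. The count lower in the Notch3-high cells was 2 in cells with at most 5% mitochondrial UMIs, with 8000 to 14000 UMIs or without Xist, without the highest doublet scores and with free RNA subtracted. The count lower in the SMC-like cells was 0 at 5% mitochondrial UMIs and 2 without Xist. Without Xist 2 members were higher in the vFB3-like and 1 was lower in the Sox6-high cells, and with Xist 0 were lower in the FB4-like cells.

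At 1.5-fold, 1 member was higher in the FB4-like, 4 in the Sox6-high, 2 in cluster 2 over 1 and 2 in cluster 4 over 5, and 1 was lower in the Sox6-high, 3 in the Notch3-high and 1 in the vFB3-like cells. At 3-fold, 1 was higher in the Sox6-high, 2 in the vFB3-like and 0 in cluster 4 over 5, and 0 were lower in the FB4-like, SMC-like and Notch3-high cells. These follow from the limit itself, and the cause of the other changes was not tested. The share of all genes is given only at 2-fold in the main treatment. Counts of members at other limits, or in other sets of cells, have no such share beside them and are not results about the members. Depth limits Itga4, Itga7 and Itga8 in the villus clusters and each rare class.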
